A study of Arabidopsis thaliana with 18 samples.

Results

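The clade A protein phosphatases 2C (PP2Cs) and NCED3 were followed in leaves of *Arabidopsis thaliana* as 10 genes chosen by name, of 32678 in the count table. They were ABI1, ABI2, HAB1, HAB2, HAI1, HAI2, HAI3, PP2CA, AHG1 and NCED3, a choice by family and pathway with no threshold on measured values. The study activated an intracellular immune receptor without a pathogen and followed the transcriptome over time. Plants were Col-0, the wild-type, or 35S:RPS4-HS, a Col-0 line (35S:RPS4 hereafter) in which the constitutive 35S promoter drives the TIR-type receptor RPS4. Until sampling or the shift, all plants were 3.5 weeks old and had been kept at 28 °C, a temperature that restrains RPS4. Leaves were taken before a shift to 19 °C (0 h) or 4 h and 8 h after it, with 3 libraries in each of the 6 groups, 18 in all. The 35S promoter is active in most plant tissues, and 1 transgenic line was used. Whether the replicates are separate plants is not in the labels, and the p-values cover the spread between these libraries, which may be technical. No plants kept at 28 °C were sampled at 4 h or 8 h, so the shift and the hours passed cannot be told apart within a line.

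Abscisic acid (ABA) is the plant hormone of drought and osmotic stress, and it also closes stomata and acts in immunity. Without ABA, clade A PP2Cs bind and dephosphorylate the SnRK2 kinases and so hold the pathway off. ABA bound by receptors of the PYR/PYL family turns these phosphatases off, the SnRK2s phosphorylate ABF transcription factors, and target genes are transcribed through promoter elements with the core ACGTG (the ABA-responsive element, ABRE). Several of the targets are clade A PP2C genes themselves, a negative feedback. NCED3 encodes the 9-*cis*-epoxycarotenoid dioxygenase that catalyses the rate-limiting step of stress-induced ABA synthesis in leaves.

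In the TAIR10.1 assembly, ABI1 (AT4G26080) lies at chr4:13219915-13222376 on the minus strand with 4 exons, and ABI2 (AT5G57050) at chr5:23087122-23089631 on the plus strand with 3. HAB1 (AT1G72770) lies at chr1:27389948-27393327 and HAB2 (AT1G17550) at chr1:6034270-6037398, both on the plus strand with 4 exons. The HAI genes have 3 exons each, HAI1 (AT5G59220) at chr5:23894404-23896939, HAI2 (AT1G07430) at chr1:2280746-2282828, both minus, and HAI3 (AT2G29380) at chr2:12608675-12610350, plus. PP2CA (AT3G11410) lies at chr3:3583782-3585850, minus, with 4 exons, and AHG1 (AT5G51760) at chr5:21026805-21029188, plus, with 5. NCED3 (AT3G14440) is a gene of 1 exon at chr3:4831286-4834015 on the minus strand. ABI1 shared 22 bases of exon with AT4G26070 on the opposite strand, and the strand setting of the counting is not given in the sources used here, so reads from these bases cannot be assigned to either gene. The other 9 overlapped no exon of another gene. The closest coding sequences were ABI1 and ABI2 with 82% identical aligned bases, HAB1 and HAB2 with 80.5%, and HAI2 and HAI3 with 78.1%. The longest run of identical bases in these pairs was 26, 33 and 21 bases, respectively.

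The stretch before the annotated start is shown for 4 genes with different time courses, chosen after their values were seen. These are HAB1, which was low at 4 h in both lines and high again in 35S:RPS4 at 8 h, PP2CA, which was lowest in 35S:RPS4 at 4 h, HAI1, which had 2 to 38 counts in 5 of the 6 Col-0 libraries taken after the shift, and NCED3, which was high in 35S:RPS4 at 4 h and 8 h. Each sequence (RefSeq, TAIR10.1) holds the 250 bases before the start, written 5′ to 3′ on the strand of the gene. Capitals mark the ABRE core ACGTG on either strand, CACGT being its reverse complement and CACGTG holding it on both strands. They come from chr1:27389698-27389947, plus strand (HAB1), chr3:3585851-3586100, minus strand (PP2CA), chr5:23896940-23897189, minus strand (HAI1), and chr3:4834016-4834265, minus strand (NCED3).
HAB1: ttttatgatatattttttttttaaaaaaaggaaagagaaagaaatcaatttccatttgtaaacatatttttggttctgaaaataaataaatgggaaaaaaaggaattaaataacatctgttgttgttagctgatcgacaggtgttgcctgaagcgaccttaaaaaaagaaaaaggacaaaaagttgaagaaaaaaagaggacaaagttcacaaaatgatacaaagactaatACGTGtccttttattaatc
PP2CA: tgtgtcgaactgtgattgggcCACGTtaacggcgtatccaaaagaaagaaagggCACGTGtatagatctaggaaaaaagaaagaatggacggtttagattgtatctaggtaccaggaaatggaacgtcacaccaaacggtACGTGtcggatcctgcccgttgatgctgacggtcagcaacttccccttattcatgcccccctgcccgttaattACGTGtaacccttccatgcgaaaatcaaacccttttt
HAI1: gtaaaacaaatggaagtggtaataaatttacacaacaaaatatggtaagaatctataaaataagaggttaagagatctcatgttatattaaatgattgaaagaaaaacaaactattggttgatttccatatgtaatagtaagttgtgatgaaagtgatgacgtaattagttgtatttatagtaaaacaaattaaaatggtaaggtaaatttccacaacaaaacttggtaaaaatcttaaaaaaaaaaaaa
NCED3: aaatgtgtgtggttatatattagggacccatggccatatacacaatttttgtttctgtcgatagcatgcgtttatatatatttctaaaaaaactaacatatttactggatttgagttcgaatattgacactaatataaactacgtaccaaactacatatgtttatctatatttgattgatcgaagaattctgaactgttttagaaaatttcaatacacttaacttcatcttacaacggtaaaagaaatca

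PP2CA had 5 matches to the ABRE core, 4 of them between positions −229 and −106 from the start, and HAB1 had 1, from −19 to −15. HAI1 and NCED3 had none in this window, nor had ABI1 and ABI2. Counting the 250 bases before and the 50 bases after the start, 6 of the 10 genes had at least 1 match (HAB1, HAB2, HAI2, HAI3, PP2CA and AHG1), against 26.7% of 27443 promoters of the same length. The core of the element bound by CAMTA transcription factors, CGCG, was found in 3 (HAB2, HAI3 and AHG1) against 13.0% of promoters. Its relaxed form CGTG, which the ABRE core contains, was found in 8 against 52.7%. The W-box core TTGAC, bound by WRKY factors, was found in 5 against 50.5%, and the dehydration-responsive core CCGAC in 2 (PP2CA and AHG1) against 15.1%. Both strands were searched, and a match describes letters only. Genes with and without an ABRE core in this window were thus both among those whose level differed between the lines.

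**Figure D1:**
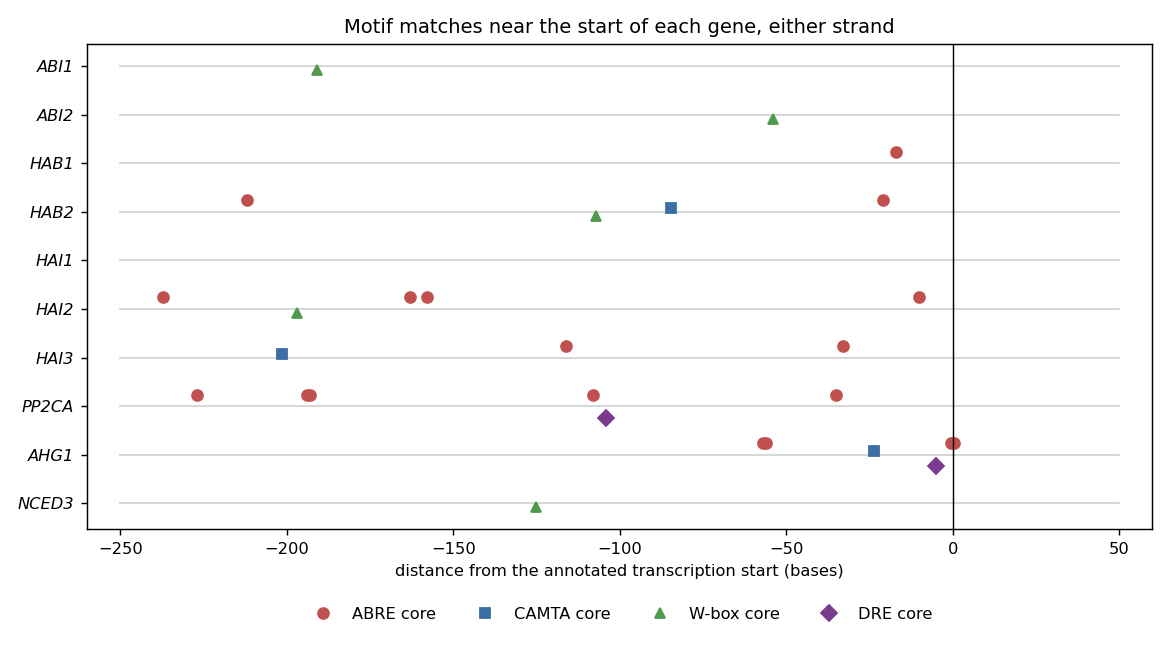
Motif matches from 250 bases before to 50 bases after the annotated start of the 10 genes (rows), with distance from the start in bases on the horizontal axis. Circles are ABRE cores, squares CAMTA cores, triangles W-box cores and diamonds dehydration-responsive (DRE) cores on either strand. PP2CA carries 5 ABRE cores and HAI1 none of these 4 motifs.

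Counts in genes were 23876651 to 36291942 per library. Levels are CPM, counts per 1000000 counts in the tested genes of a library after TMM scaling. A change is called where edgeR's quasi-likelihood test gave an absolute log2 fold change (log2FC) above 1 with an adjusted p (Benjamini-Hochberg) under 0.01, the limits the study used. RPS4 itself read 12.2 to 20.1 CPM in the 9 Col-0 libraries and 665 to 2604 CPM in the 9 libraries of 35S:RPS4, as labelled. The 5 mesophyll markers summed to 7217 to 40206 CPM, whereas seed storage markers had 0 to 24 counts per library. Guard cell markers summed to 36.8 to 72.1 CPM, vascular markers to 60.7 to 208 CPM and the root gene PYK10 read 1.05 to 74.2 CPM. In bulk leaves, fewer cells of a type and less RNA per cell cannot be told apart.

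Col-0 at 8 h, replicate 3, stood apart from replicates 1 and 2 of its group in the genes described here. It was above both of them for 8 of the 8 members that could be tested and for 17 of 17 ABA-induced target genes. The mean of these targets was 6.02 log2 CPM in it, against 2.84 and 3.07 in the other replicates. HAI1 had 870 counts in this library and 5 and 2 in the others, HAI2 362 against 19 and 57, and HAB1 996 against 139 and 153. Its RPS4 level was 15.8 CPM, within the Col-0 range. Over all tested genes it had 359 that were over 2-fold from the mean of the other replicates, with 1 CPM added to each side. This was within the range of 62 to 959 across the 18 libraries. For the members, values between the lines and from 0 h that use Col-0 at 8 h are given with and without it where it moved them, and for the gene lists the calls that it changed are named. Each of the other libraries was left out in turn for the members. Replicate 3 of 35S:RPS4 at 8 h was above its group for 15 of the 17 targets, with a mean of 4.97 log2 CPM against 3.84 and 4.08.

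**Figure D2:**
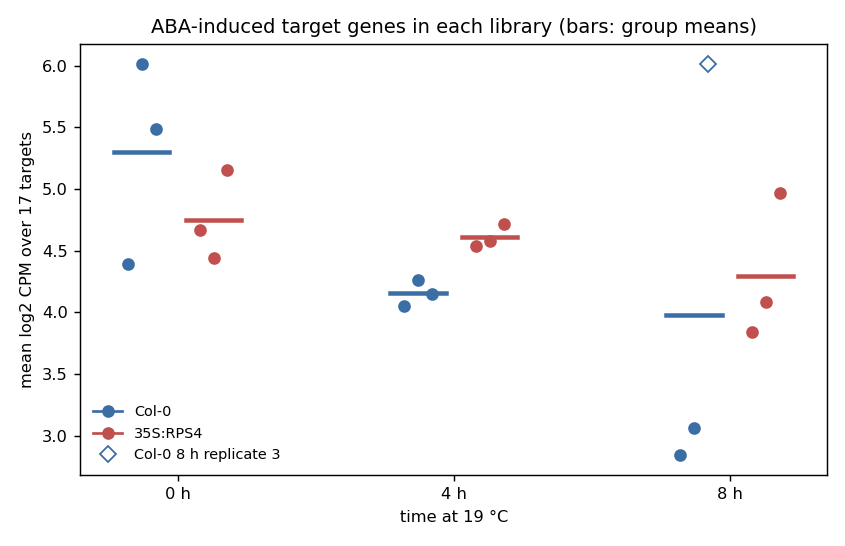
Mean log2 CPM over 17 ABA-induced target genes (vertical axis) in each library, by time at 19 °C, with Col-0 in blue, 35S:RPS4 in red and bars at the group means. The open diamond, Col-0 at 8 h replicate 3, lies at 6.02 while the other Col-0 libraries at 8 h lie at 2.84 and 3.07.

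No member was called between the lines before the shift. By 8 h most of the phosphatase genes and NCED3 were higher in 35S:RPS4 than in Col-0. At 0 h PP2CA (log2FC 0.69 ± 0.29, edgeR adjusted p = 0.475) and ABI2 (0.39 ± 0.27, 0.654) read higher in every 35S:RPS4 library. The share of all genes separated so at 0 h is not given here, and no difference before the shift is read from it. HAI3 and AHG1 were barely detected in leaves and failed the filter on low counts, so 8 members were tested. At 0 h edgeR called 0 of the 8 in either direction, as did DESeq2 and limma voom, and 1 (PP2CA) had an unadjusted p under 0.05. Of all 20023 genes tested, 0.00999% were called higher and 0% lower at 0 h. At 4 h ABI1 and NCED3 were called higher and PP2CA lower in 35S:RPS4, which is 2 and 1 of 8 beside 16.6% and 12.4% of all genes. HAI1 made it 3 higher, beside 16.5%, without Col-0 8 h replicate 3. At 8 h ABI1, ABI2, HAB1, HAB2 and NCED3 were called higher, 5 of 8 beside 26.6% of all genes, and the 3 others (HAI1, HAI2 and PP2CA) were not called (30.1% of all genes were called lower). Without Col-0 8 h replicate 3, HAI1 and HAI2 were called as well, 7 of 8 beside 26.2%. The median log2FC of the 8 was 0.19 at 0 h, 0.48 at 4 h and 1.78 at 8 h (2.49 without that library), where the medians of all genes were 0.00, −0.01 and −0.10. Scaling by library totals alone moved the median of all genes to −0.43 at 4 h and −0.34 at 8 h and that of the 8 members to 0.05 and 1.54. On that scaling 13.3% of all genes were called higher and 21.2% lower at 4 h, with 2 of the 8 members in each direction (ABI2 joined PP2CA). The groups compared at one time share no libraries with those compared at another, whereas the comparisons of each line with its own 0 h share those groups with them. All comparisons came from 1 fit of the 18 libraries with a shared estimate of the spread, so the tests are not independent.

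**Figure D3:**
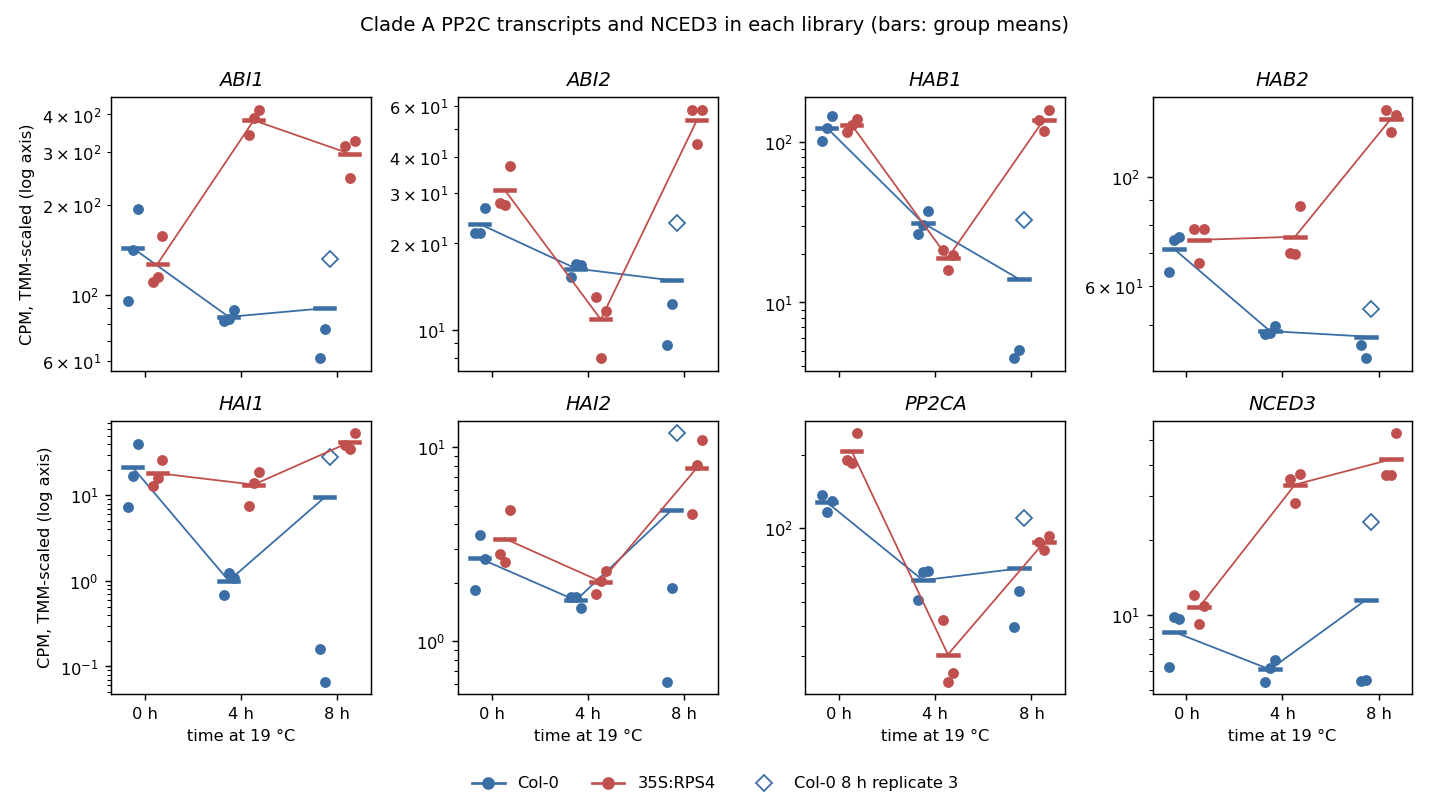
CPM after TMM scaling (vertical axes, logarithmic) of the 8 tested genes in each library at 0 h, 4 h and 8 h at 19 °C. Col-0 is blue, 35S:RPS4 red, bars and lines mark group means, and the open diamond is Col-0 8 h replicate 3, which lies above both other Col-0 libraries at 8 h in all 8 panels.

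ABI1 and ABI2 encode the closest pair of the family and are the phosphatases in which dominant ABA-insensitive mutations were first found. ABI1 was 95.0, 141 and 194 CPM in the Col-0 libraries at 0 h and 110.0, 114 and 157 CPM in 35S:RPS4. After 4 h the values were 81.4, 82.6 and 88.7 CPM in Col-0 against 342, 389.8 and 415 CPM, and at 8 h 61.3, 76.8 and 132 CPM against 314, 246 and 327 CPM. The lines thus overlapped at 0 h and were fully separate at 4 h and 8 h, also with the high Col-0 library at 8 h. 35S:RPS4 differed from Col-0 by a log2FC of −0.17 ± 0.26 (SE) at 0 h (edgeR adjusted p = 0.863), 2.18 ± 0.27 at 4 h (3.54e-06) and 1.72 ± 0.27 at 8 h (1.72e-05), or 2.097 ± 0.26 without Col-0 8 h replicate 3. Within 35S:RPS4 it rose from 0 h by 1.59 ± 0.27 at 4 h and 1.22 ± 0.26 at 8 h, whereas in Col-0 its log2FC was −0.76 ± 0.26 and −0.67 ± 0.26, neither called. In Col-0 at 8 h it was called without replicate 3 of that group (−1.05 ± 0.25). The line by shift interaction, which asks whether the change from 0 h differs between lines, was 2.36 ± 0.37 at 4 h (adjusted p = 7.77e-05) and 1.89 ± 0.37 at 8 h (0.000248), or 2.27 ± 0.33 at 8 h without Col-0 8 h replicate 3. The ordered group means ran from Col-0 4 h (84.3 CPM) through Col-0 8 h, 35S:RPS4 0 h and Col-0 0 h, all overlapping their neighbour, to 35S:RPS4 at 8 h (296 CPM) and 4 h (382 CPM), each separate from the group below.

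ABI2 behaved otherwise at 4 h. It was 21.7, 21.8 and 26.6 CPM in Col-0 at 0 h and 27.6, 27.2 and 37.3 CPM in 35S:RPS4. Its level at 4 h was 15.3, 17.0 and 16.8 CPM in Col-0 against 13.0, 7.98 and 11.7 CPM, and at 8 h 8.84, 12.3 and 23.5 CPM against 58.5, 44.5 and 58.1 CPM. The libraries of 35S:RPS4 were therefore below those of Col-0 at 4 h and above them at 8 h. Between 35S:RPS4 and Col-0 the log2FC was −0.59 ± 0.27 at 4 h, which was not called (adjusted p = 0.0812), and 1.85 ± 0.27 at 8 h (9.95e-06), or 2.34 ± 0.23 without Col-0 8 h replicate 3. The change of the line effect from 4 h to 8 h was itself called, at 2.44 ± 0.39 (adjusted p = 5.07e-05), or 2.93 ± 0.30 without that library. The interaction at 8 h was 1.46 ± 0.38 (adjusted p = 0.00263), or 1.94 ± 0.29. Within 35S:RPS4, ABI2 fell by 1.50 on the log2 scale from 0 h to 4 h (SE 0.28, adjusted p = 0.000183) and rose by 2.304 ± 0.28 from 4 h to 8 h (1.99e-06). The latter contrast, and its counterpart in Col-0, were added after the data had been seen. With library totals the log2FC of ABI2 at 4 h was −1.02 and was called (adjusted p = 0.00358).

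HAB1 and HAB2 form the second close pair, named for their homology to ABI1. HAB1 was 101, 121 and 143 CPM in Col-0 at 0 h and 115, 127 and 137 CPM in 35S:RPS4. At 4 h it was 26.5, 30.3 and 36.9 CPM in Col-0 and 21.1, 16.0 and 19.8 CPM in 35S:RPS4, and at 8 h 4.50, 5.03 and 32.4 CPM against 137, 117 and 158 CPM. HAB1 was hence low in both lines at 4 h, lower still in 2 of the 3 Col-0 libraries at 8 h, and back in the range of 0 h in 35S:RPS4. In Col-0 it fell, with log2FC from 0 h of −1.96 ± 0.50 at 4 h (adjusted p = 0.00782) and −3.12 ± 0.52 at 8 h (0.000116), or −4.67 ± 0.23 at 8 h without Col-0 8 h replicate 3. In 35S:RPS4 it fell by 2.74 ± 0.52 at 4 h (adjusted p = 0.000231) and rose by 2.86 ± 0.52 from 4 h to 8 h (0.000135), and its log2FC from 0 h to 8 h was 0.12 ± 0.48 (0.834). The lines differed by a log2FC of −0.72 ± 0.49 at 4 h (adjusted p = 0.235) and 3.30 ± 0.53 at 8 h (2.39e-05), or 4.85 ± 0.23 without that library. The interaction at 8 h was 3.24 ± 0.70 (adjusted p = 0.00059) and the change of the line effect from 4 h to 8 h 4.02 ± 0.71 (0.000158), or 4.79 ± 0.27 and 5.57 ± 0.28 without Col-0 8 h replicate 3. The call of HAB1 in Col-0 at 4 h lay close to the threshold. It was lost when any of 12 of the 18 libraries was left out, with log2FC of −2.10 to −1.83 and adjusted p of 0.0101 to 0.0372. The 6 whose omission kept it were Col-0 0 h replicate 1, the 3 of Col-0 at 8 h, and 35S:RPS4 4 h replicates 1 and 2.

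HAB2 varied least, with group means that spanned 1.47 log2 units against 3.90 for HAB1 and 5.42 for HAI1. It was 64.2, 74.5 and 75.7 CPM in Col-0 at 0 h and 78.5, 66.9 and 78.3 CPM in 35S:RPS4. After 4 h the values were 47.9, 48.3 and 49.8 CPM against 70.0, 69.6 and 87.3 CPM, and at 8 h 45.6, 42.9 and 53.9 CPM against 137, 124 and 134 CPM. The lines were separate at 4 h and further apart at 8 h. 35S:RPS4 differed from Col-0 by a log2FC of 0.64 ± 0.12 at 4 h (adjusted p = 0.000303, below the fold minimum) and 1.47 ± 0.12 at 8 h (9.82e-09), or 1.57 ± 0.14 without Col-0 8 h replicate 3. The interaction at 8 h was 1.41 ± 0.17 (adjusted p = 1.61e-06), or 1.51 ± 0.18 without that library. Its log2FC from 0 h was −0.55 ± 0.12 at 4 h and −0.59 ± 0.12 at 8 h in Col-0, and 0.02 ± 0.12 and 0.82 ± 0.12 in 35S:RPS4, all short of the fold minimum.

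HAI1, HAI2 and HAI3 encode phosphatases named as highly ABA-induced, and HAI1 is a widely used readout of ABA responses. HAI1 was 7.36, 17.0 and 39.3 CPM in Col-0 at 0 h and 12.9, 15.8 and 25.8 CPM in 35S:RPS4. Its level at 4 h was 0.692, 1.25 and 1.07 CPM in Col-0 (20, 38 and 33 counts) against 7.60, 13.8 and 18.6 CPM. At 8 h it was 0.162, 0.0658 and 28.3 CPM in Col-0 against 38.3, 34.5 and 53.0 CPM. All libraries of 35S:RPS4 lay above those of Col-0 at 4 h and 8 h, but the group at 8 h in Col-0 spanned 2 to 870 counts. Between 35S:RPS4 and Col-0 the log2FC was 3.73 ± 1.26 at 4 h (adjusted p = 0.0206) and 2.14 ± 1.08 at 8 h (0.0802), neither called. With the replicate number as a block in the fit, the 8 h value was called. Without Col-0 8 h replicate 3, the 4 h value stayed at 3.72 and was called (adjusted p = 2.8e-05), and that at 8 h was 8.47 ± 0.88 (2.6e-07), against the 5 and 2 counts of the other Col-0 libraries. Leaving out Col-0 8 h replicate 1 or 2 also called HAI1 at 4 h (adjusted p = 0.00728 and 0.00629). In Col-0 the log2FC from 0 h was −4.39 ± 1.28 at 4 h (adjusted p = 0.0173) and −1.16 ± 1.06 at 8 h (0.389), or −7.48 ± 0.87 at 8 h without that library (5.02e-06), and the value at 4 h was called when any 1 of the 3 Col-0 libraries at 8 h was left out. In 35S:RPS4 it was −0.44 ± 1.05 at 4 h and 1.21 ± 1.05 at 8 h (adjusted p = 0.739 and 0.301). The change of the line effect from 4 h to 8 h, not called at −1.59 ± 1.61, turned to 4.74 ± 1.07 without Col-0 8 h replicate 3 and to 2.095 in limma voom with all libraries.

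HAI2 was less abundant. It was 1.84, 3.52 and 2.64 CPM in Col-0 at 0 h and 2.82, 2.55 and 4.75 CPM in 35S:RPS4. At 4 h it was 1.70, 1.68 and 1.49 CPM against 1.75, 2.03 and 2.302 CPM, and at 8 h 0.615, 1.87 and 11.8 CPM against 4.52, 8.09 and 10.8 CPM. The lines overlapped at 0 h and 8 h, the latter through the Col-0 library at 11.8 CPM. The log2FC was 0.33 ± 0.70 at 4 h (adjusted p = 0.722) and 0.72 ± 0.65 at 8 h (0.319), or 2.65 ± 0.48 and called at 8 h without that library (0.000111). In Col-0 at 8 h against 0 h its log2FC was 0.83 ± 0.67, or −1.10 ± 0.46 without it, neither called. HAI3 had 0 to 5 counts per library and 16 over all 18, and AHG1, a phosphatase known mainly from seeds, 0 to 5 and 11. A count of 3 in a library corresponded to 0.0845 to 0.150 CPM, so differences between groups were not detectable at this depth for these genes.

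PP2CA (also AHG3), a strong brake on ABA responses in seeds and guard cells, was the 1 member called lower in 35S:RPS4. It was 137, 117 and 129.7 CPM in Col-0 at 0 h and 190.2, 184 and 244 CPM in 35S:RPS4. After 4 h the values were 50.9, 66.3 and 67.0 CPM against 42.3, 23.5 and 25.6 CPM, and at 8 h 39.6, 55.5 and 111 CPM against 87.8, 81.9 and 93.1 CPM. Before the shift every 35S:RPS4 library was thus above every Col-0 library, at 4 h every one was below, and at 8 h the groups overlapped. 35S:RPS4 differed from Col-0 by a log2FC of 0.69 ± 0.29 at 0 h (adjusted p = 0.475), −1.01 ± 0.29 at 4 h (0.00772) and 0.35 ± 0.29 at 8 h (0.267), or 0.88 ± 0.23 at 8 h without Col-0 8 h replicate 3. In 35S:RPS4 PP2CA fell by 2.76 ± 0.30 on the log2 scale at 4 h (adjusted p = 7.6e-07), rose by 1.52 ± 0.29 from 4 h to 8 h (0.000233) and at 8 h still had a log2FC of −1.24 ± 0.29 from 0 h (0.000917). In Col-0 its log2FC from 0 h was −1.06 ± 0.29 at 4 h and −0.90 ± 0.29 at 8 h (adjusted p = 0.0118 and 0.0158). The former was called without Col-0 8 h replicate 1 or 3 or 35S:RPS4 4 h replicate 1, and the latter without Col-0 8 h replicate 3 (−1.43 ± 0.24). The interaction at 4 h was −1.70 ± 0.41 (adjusted p = 0.0029), and the change of the line effect from 4 h to 8 h was 1.36 ± 0.41 (0.0091), or 1.89 ± 0.31 without Col-0 8 h replicate 3. Its call between the lines at 4 h lay at the edge of the rule. It was lost without Col-0 4 h replicate 2 or 3 and without 35S:RPS4 4 h replicate 2 or 3 (log2FC −0.95, −0.94, −0.86 and −0.90), and, with the log2FC at −1.01, without 35S:RPS4 0 h replicate 1 or any library of 35S:RPS4 at 8 h (adjusted p of 0.010 to 0.0103). The interaction at 4 h was lost without 35S:RPS4 4 h replicate 3 (−1.59, adjusted p = 0.010), and the change from 4 h to 8 h when any 1 of 14 libraries was left out (1.09 to 1.41, adjusted p of 0.0103 to 0.0267).

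NCED3 stood higher in 35S:RPS4 from 4 h on. It was 6.22, 9.81 and 9.69 CPM in Col-0 at 0 h and 12.1, 9.23 and 10.9 CPM in 35S:RPS4. Its level at 4 h was 5.40, 6.15 and 6.64 CPM in Col-0 against 34.9, 28.1 and 36.8 CPM, and at 8 h 5.44, 5.52 and 23.6 CPM against 36.2, 36.4 and 53.4 CPM. The lines overlapped at 0 h and were separate at 4 h and 8 h, and the levels of 35S:RPS4 at 4 h and 8 h overlapped. Between 35S:RPS4 and Col-0 the log2FC was 0.33 ± 0.41 at 0 h (adjusted p = 0.829), 2.45 ± 0.43 at 4 h (0.000127) and 1.87 ± 0.41 at 8 h (0.000566), or 2.94 ± 0.24 at 8 h without Col-0 8 h replicate 3. In 35S:RPS4 it rose from 0 h by 1.63 ± 0.41 at 4 h (adjusted p = 0.00275) and 1.97 ± 0.41 at 8 h (0.00038). In Col-0 its log2FC was −0.50 ± 0.42 and 0.43 ± 0.41 (adjusted p = 0.401 and 0.412), the latter −0.64 ± 0.23 without that library. The interaction was 2.13 ± 0.58 at 4 h (adjusted p = 0.00765) and 1.54 ± 0.58 at 8 h (0.0257, not called), or 2.61 ± 0.30 at 8 h without Col-0 8 h replicate 3 (1.53e-06). A fit with the replicate number as a block also called it at 8 h. The call of the interaction at 4 h was lost when any of 11 of the 18 libraries was left out (2.02 to 2.22, adjusted p of 0.0101 to 0.0202), and the rise at 4 h without 35S:RPS4 0 h replicate 2 or 3 (1.53 and 1.64, adjusted p = 0.0143 and 0.0101).

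**Figure D4:**
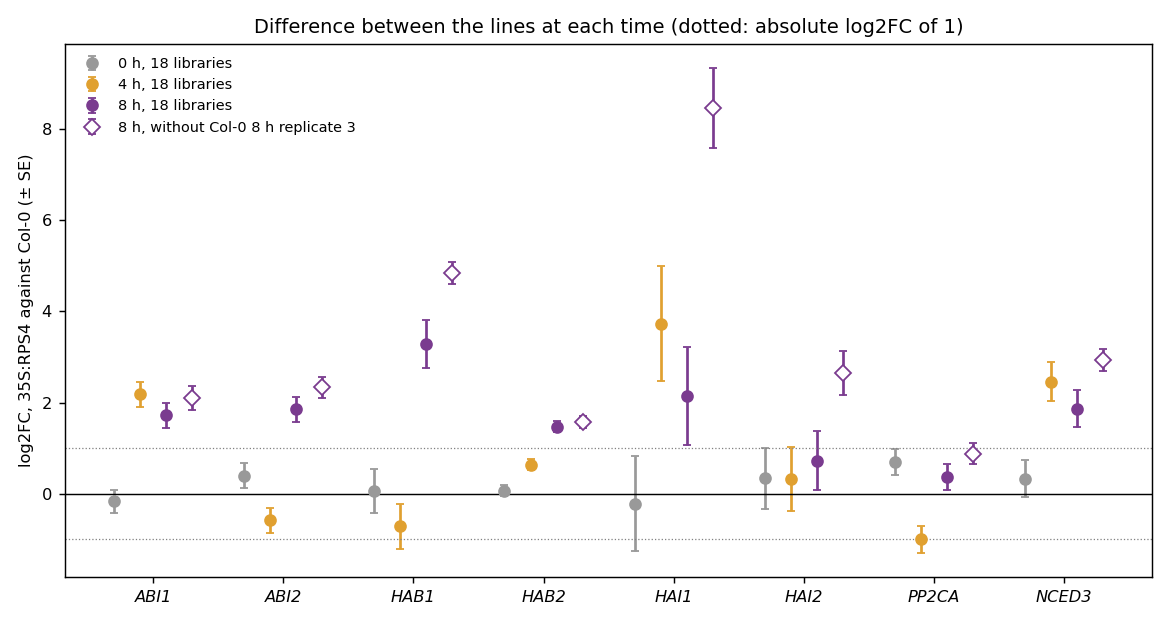
Log2FC of 35S:RPS4 against Col-0 with its SE (vertical axis) for the 8 tested genes at 0 h (grey), 4 h (orange) and 8 h (purple) from all 18 libraries, and at 8 h without Col-0 8 h replicate 3 (open diamonds). HAI1 moves from 2.14 to 8.47 and HAB1 from 3.30 to 4.85 without that library, and PP2CA lies at −1.01 at 4 h.

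Counted over time within a line, 1 of the 8 genes (HAB1) was called lower in Col-0 at 4 h and at 8 h, beside 4.79% and 11.8% of all genes, and 0 higher, beside 3.87% and 10.5%. DESeq2 and limma voom also called 0 higher at either time, and 0 had an unadjusted p under 0.05 in that direction. Without Col-0 8 h replicate 3, 3 were called lower at 4 h (HAB1, HAI1 and PP2CA) beside 4.98%, and 5 at 8 h (ABI1, ABI2, HAB1, HAI1 and PP2CA) beside 11.5%. In 35S:RPS4, ABI1 and NCED3 were called higher at 4 h and at 8 h, 2 of 8 beside 18.3% and 26.5%. ABI2, HAB1 and PP2CA were called lower at 4 h, 3 of 8 beside 14.8%, and PP2CA at 8 h beside 29.7%. From 4 h to 8 h, ABI2, HAB1 and PP2CA were called higher in 35S:RPS4, 3 of 8 beside 13.7%. HAI1 and HAI2 joined them without Col-0 8 h replicate 3, with log2FC of 1.65 and 1.94 (adjusted p = 0.00517 and 0.000476), and HAI2 also without Col-0 8 h replicate 1. At 8 h against 0 h HAI2 was called higher without Col-0 8 h replicate 3 (1.21 ± 0.38). In Col-0, 0 of 8 were called from 4 h to 8 h by edgeR (4.4% of all genes higher and 4.88% lower), where 3 had an unadjusted p under 0.05 upwards and 1 downwards, and limma voom called 1 lower. Without Col-0 8 h replicate 3, HAB1 was called lower there (−2.71 ± 0.21), and without replicate 1 HAI2 was called higher (2.07). The interaction was called in 2 genes upwards and 1 downwards at 4 h, beside 15% and 10.2% (HAI1 was added upwards without Col-0 8 h replicate 3), and in 4 upwards at 8 h, beside 24.9%, or 7 without that library, beside 24.1%. With all 18 libraries the other 4 of the 8 were not called at 8 h, while 27.3% of all genes had the interaction called downwards. The change of the line effect from 4 h to 8 h was called upwards in 3, beside 13.3% of all genes upwards and 22.9% downwards, or 5 without it, beside 12.5%. With library totals the shares of all genes called higher and lower were 15.2% and 19.7% in 35S:RPS4 from 0 h to 4 h, 17.7% and 21.1% from 4 h to 8 h, and 12.5% and 16.5% for the interaction at 4 h, where the main scaling gave 14.8%, 25.1% and 10.2% lower.

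Each group was compared only with the next one below it in the order of group means. By this order ABI2 was lowest in 35S:RPS4 at 4 h and highest in 35S:RPS4 at 8 h. The 3 highest groups, Col-0 0 h, 35S:RPS4 0 h and 35S:RPS4 8 h, were each separate from the one below. Col-0 0 h (21.7 to 26.6 CPM) nevertheless overlapped Col-0 8 h (8.84 to 23.5 CPM), which lay further down. HAB1 ran from Col-0 8 h through 35S:RPS4 4 h, Col-0 4 h and Col-0 0 h to 35S:RPS4 at 0 h and 8 h, and the 3 highest groups overlapped. HAB2 had both shifted Col-0 groups at the bottom, both 0 h groups with 35S:RPS4 4 h overlapping in the middle, and 35S:RPS4 8 h separate at the top. PP2CA was the only one of the 8 with its highest mean before the shift in 35S:RPS4, separate from Col-0 0 h below it, and its lowest in 35S:RPS4 at 4 h. NCED3 had 35S:RPS4 at 4 h and 8 h, which overlapped, above the other 4 groups. Each group of HAI1 overlapped the next in order. For HAI2 the 2 lowest, Col-0 4 h and 35S:RPS4 4 h, were separate from each other and the others overlapped their neighbours. The range of HAI2 in Col-0 8 h (0.615 to 11.8 CPM) took in both of these lowest groups.

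Per kilobase of exon, the scale on which genes can be compared, PP2CA (71.0 CPM per kb), ABI1 (66.0) and HAB1 (43.6) led in Col-0 at 0 h, followed by HAB2 (27.1), ABI2 (10.2), HAI1 (10.2), NCED3 (3.14) and HAI2 (1.40). In 35S:RPS4 at 4 h, ABI1 (176 CPM per kb) stood above HAB2 (28.6), PP2CA (16.9), NCED3 (12.2), HAB1 (6.78), HAI1 (6.40), ABI2 (4.77) and HAI2 (1.06). The order of the levels of PP2CA and HAB1 relative to HAB2 was thus reversed between these groups. At 8 h in 35S:RPS4, ABI1 stood at 136 CPM per kb, HAB2 at 49.7, HAB1 at 49.1 and PP2CA at 48.6.

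Across the 18 libraries, ABI1 and NCED3 ran together (Pearson r = 0.915 of log2 CPM), as did ABI2 and HAB1 (0.85), whereas ABI1 and PP2CA gave −0.27. These libraries share lines, times and the high Col-0 library, so the values describe the course and no more. Of the 20023 genes, the closest to HAI1 was GBF3 (r = 0.943, or 0.981 without Col-0 8 h replicate 3), a G-box binding factor on the list of ABA-induced targets, then the NAC factors ATAF1 (0.933) and NAC032 (0.932). HAB1 was closest to BGLU11 (0.945), NSP5 (0.944) and AT1G52855 (0.934), PP2CA to AT1G02816 (0.938), AT4G34630 (0.932) and AT1G80940 (0.923), and NCED3 to AT2G28400 (0.966), AT1G05340 (0.958) and AT3G57700 (0.945).

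Genes around the phosphatases in the ABA pathway moved in both directions. Their counts are to be read against all tested genes, of which the line effect was called upwards in 16.6% and downwards in 12.4% at 4 h and in 26.6% and 30.1% at 8 h, and some of the lists lie close to these shares. Among the genes named, exon bases shared with a gene on the opposite strand numbered 1616 of 1616 in UGT71B6 (with AT3G21781), 616 of 1240 in PYL7, 808 of 1881 in SLAC1, 470 of 1184 in ABA2, 749 of 5431 in AAO3, 246 of 1944 in GBF3, 188 of 1720 in ABF1 and 11 to 113 in SNRK2.3, ABF3, AREB3 and RAB18, and reads there cannot be told apart by strand. Of 14 PYR/PYL receptor genes 10 passed the filter. At 4 h PYL4 (log2FC 2.24 ± 0.28), PYL5 (2.47 ± 0.38) and PYL6 (1.98 ± 0.56), which encode receptors active as monomers, were called higher in 35S:RPS4, and the other 7 were not called. At 8 h PYR1 (−2.44 ± 0.17), PYL6 (−2.72 ± 0.60), PYL7 (−1.78 ± 0.27) and PYL8 (−1.87 ± 0.15) were called lower, and the other 6 were not called. PYL6 was therefore on opposite sides at the 2 times, with 5.60 to 11.5 CPM against 1.70 to 2.83 CPM in Col-0 at 4 h and 0.493 to 0.922 CPM against 2.37 to 6.09 CPM at 8 h. The median log2FC of the receptors was −0.03 at 4 h and −0.83 at 8 h. Of the 3 SnRK2 kinase genes central to ABA signalling, SNRK2.3 was called higher at 4 h (1.14 ± 0.15), and OST1, the kinase of stomatal closure, had a log2FC of −0.90 ± 0.15 at 8 h, short of the fold minimum.

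Of 8 transcription factor genes of the ABA pathway 6 were tested. ABF1 was called lower at 4 h (−1.68 ± 0.23) and 8 h (−1.53 ± 0.22), and AREB3 higher at 8 h (1.71 ± 0.15). ABF1 rose with time in each line, from 3.52 to 8.18 CPM at 0 h to 61.9 to 70.0 CPM at 8 h in Col-0 and from 2.73 to 4.01 CPM to 21.0 to 25.7 CPM in 35S:RPS4. ABF3, named after its values were seen, was called higher at 8 h without Col-0 8 h replicate 3 (1.38 ± 0.21), against −0.16 ± 0.50 with it. The median of the list was −0.40 at 4 h and 0.52 at 8 h.

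Other steps of ABA synthesis were mixed. Of 9 genes 6 were tested, and at 8 h 3 were called higher and 2 lower, the latter near the share of all genes. NCED5, a second dioxygenase gene, was 14.5 to 35.3 CPM in 35S:RPS4 at 8 h against 0.0325 to 0.259 CPM in Col-0 (log2FC 7.65 ± 0.68), and at 4 h its log2FC was 1.70 ± 0.78 (edgeR adjusted p = 0.078). AAO3, the aldehyde oxidase of the last step, was called higher at 4 h (1.03 ± 0.21) and 8 h (1.93 ± 0.22), and ABA3, which supplies its sulfurated cofactor, at 8 h (2.62 ± 0.20). ABA2, the xanthoxin dehydrogenase, was called lower at 4 h (−2.13 ± 0.25) and 8 h (−1.71 ± 0.24), and ABA4, needed for neoxanthin, at 8 h (−2.38 ± 0.16). NCED3 and NCED5, the same enzymatic step, were thus both higher in 35S:RPS4 at 8 h, and the median of the synthesis list was 0.12 at 4 h and 0.76 at 8 h.

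For breakdown and conjugation of ABA, 7 of 7 genes were tested and 2 were called in each direction at each time. UGT71B6, an ABA glucosyltransferase gene that lies wholly opposite AT3G21781, so that its counts may include reads of that gene, was 31.5 to 54.6 CPM at 4 h and 37.9 to 43.2 CPM at 8 h in 35S:RPS4, against at most 1.04 CPM in Col-0 (log2FC 7.52 ± 0.45 and 6.19 ± 0.40). Among the CYP707A 8′-hydroxylases, CYP707A2 was called lower at 4 h (−3.42 ± 0.34) and 8 h (−4.01 ± 0.41). CYP707A3 was called higher at 4 h (2.25 ± 0.41). At 8 h it had 0 counts in the 3 libraries of 35S:RPS4 and 222 in those of Col-0, at least 69.2-fold lower when set against 3 counts over the group. CYP707A4 went the other way, from −2.97 ± 0.44 at 4 h to 5.00 ± 0.45 at 8 h. Of 4 transporter genes, ABCG40, an importer of ABA that is also induced by pathogens, was 72.0 to 375 CPM at 4 h and 5424 to 7767 CPM at 8 h in 35S:RPS4, against 4.39 to 7.04 CPM in Col-0 at these times (5.26 ± 0.46 and 10.38 ± 0.58). DTX50, an exporter, was called higher at 4 h (2.04 ± 0.57) and NPF4.6 lower at 8 h (−1.89 ± 0.23). Without Col-0 8 h replicate 3, DTX50 (2.17 ± 0.50) and the exporter gene ABCG25 (1.51 ± 0.40) were also called higher at 8 h, against 0.97 and 0.83 with it.

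The ABA-induced targets did not move as a group. Of 17, 1 was called higher (GBF3, 2.33 ± 0.63) and 1 lower (ATHB12, −1.92 ± 0.49) in 35S:RPS4 at 4 h, with a median of 0.27. At 8 h GBF3 (3.57 ± 0.66) and the dehydrin RAB18 (1.55 ± 0.47) were called higher. COR47 (−3.47 ± 0.58), RD29A (−2.82 ± 0.46), ERD10 (−2.49 ± 0.43), KIN2 (−2.39 ± 0.39) and RD22 (−1.85 ± 0.27) were called lower (RAB18, KIN2 and RD22 are named beyond the rule), of which COR47, RD29A, ERD10 and KIN2 are also cold-induced. Without Col-0 8 h replicate 3, RD29B, LEA4-5, MAPKKK18, RD26, ATHB7, RD20 and TSPO were called higher as well, 9 were called higher and 5 lower and the median went from −0.83 to 2.01, so the balance of this list at 8 h rested on that library. The 4 clade B PP2C genes, which act on MAP kinases and lie outside the ABA core, had AP2C1 (4.97 ± 0.55), AP2C2 (6.30 ± 0.89) and AP2C3 (3.69 ± 0.65) called higher at 4 h. At 8 h AP2C1 (2.71 ± 0.53) and AP2C3 (4.62 ± 0.67) were.

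**Figure D5:**
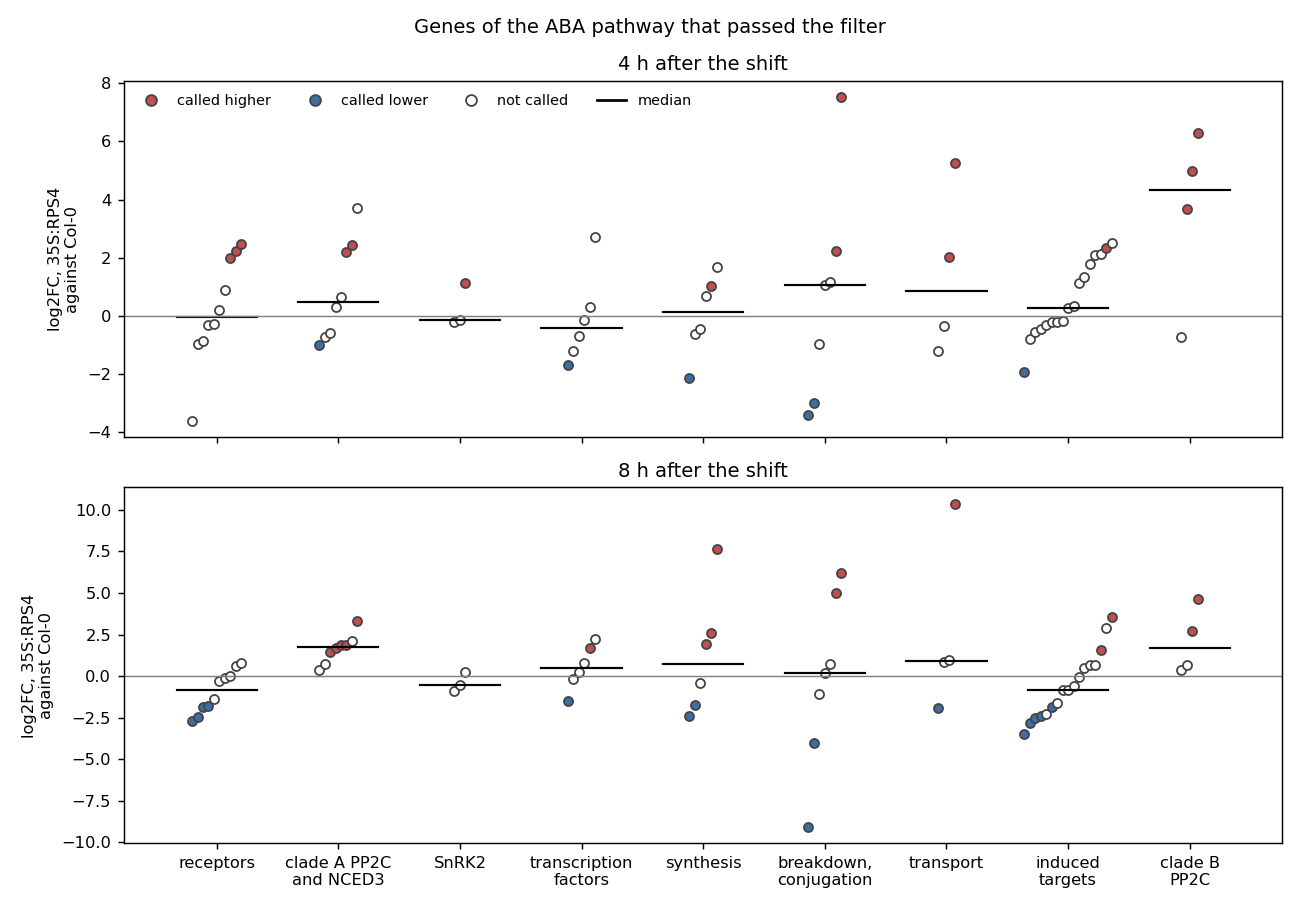
Log2FC of 35S:RPS4 against Col-0 (vertical axes) of the tested genes of each ABA-related list at 4 h (upper panel) and 8 h (lower panel), from all 18 libraries. Red points were called higher, blue lower and white not called, and black bars are medians. The lowest point at 8 h is CYP707A3, at 0 counts in 35S:RPS4, whose fitted value depends on the prior count. The median of the clade A PP2Cs with NCED3 goes from 0.48 to 1.78, and that of the receptors from −0.03 to −0.83.

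Some cell type markers were called between the lines at 8 h, when 26.6% of all genes were called higher and 30.1% lower. The 5 mesophyll markers were called lower in 35S:RPS4 (5 of 5, log2FC −3.38 to −1.10), and their sum was 7217 to 8201 CPM against 22496 to 32650 CPM in Col-0. Of 5 guard cell markers, KAT1 and SLAC1 were called higher and MYB60 lower at 8 h (SLAC1, at 1.05, was not called without Col-0 8 h replicate 3), and their sum was 49.3 to 72.1 CPM against 43.4 to 52.9 CPM. The vascular sum was 60.7 to 129 CPM against 157 to 208 CPM, with 1 of 5 called (SMXL5, lower). At 4 h 1 of these 15 markers was called (SMXL5, lower), beside 16.6% of all genes called higher and 12.4% lower. Their part in the levels of the phosphatase genes was not tested.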

How the data were processed

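The deposited table held counts of reads per gene for 18 paired-end libraries (labelled poly(A) RNA, with ribosomal RNA depleted from 2.5 µg of total RNA and cDNA primed with oligo-dT), which the authors made with TopHat2 2.0.10 on TAIR10 and HTSeq, after FastQC 0.11.2. The version and strand setting of HTSeq are not given in the sources used here. The 5 summary lines of HTSeq, for reads not counted in a gene, were left out. Of the counts in genes and these lines together, 48.5 to 49.2% were no feature, 0.252 to 0.369% ambiguous and 1.96 to 2.85% not unique. All 18 libraries were fitted together in edgeR 4.0.16 (R 4.3.3) with TMM factors (0.797 to 1.15, and 0.797 to 0.838 in 35S:RPS4 at 4 h), filterByExpr (20023 of 32678 genes kept) and the quasi-likelihood test. A call needed a Benjamini-Hochberg adjusted p under 0.01 over all tested genes and an absolute log2FC above 1. The SE is the absolute log2FC divided by the square root of F. CPM per kb divides by the exon length in TAIR10.1, the release of the same nuclear chromosomes that was at hand. Correlations used log2 CPM with a prior count of 2. The test was checked on counts simulated with the same spread for every gene and no library standing apart. The check therefore does not cover genes with libraries as unlike as those of HAI1. No replicate pair agreed within sampling noise (chi-square per gene 12.6 to 114).

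The members and gene lists were chosen with earlier results of these data known. All members were named, and from each list at most the 4 called genes that changed most, or the 2 most abundant where none was called. The comparisons of 8 h with 4 h within a line were added after the data had been seen. DESeq2 1.42.0, limma voom (limma 3.58.1), other scalings and filters, a replicate block and leaving out each library were the alternatives. Sequences come from the RefSeq copy of TAIR10.1, and motifs were searched from 250 bases before to 50 after each start. Figures were drawn in matplotlib 3.10.9.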

Additional observations from a re-analysis of the deposited data

Results flagged for a closer look

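The response to the shift differed between the lines, by the test of the difference itself, in 7 member values, and the difference between the lines changed from 4 h to 8 h in 3 more. At 4 h the interaction of line and shift was −1.70 for PP2CA, 2.13 for NCED3 and 2.36 for ABI1 on the log2 scale. At 8 h it was 1.41 for HAB2, 3.24 for HAB1, 1.89 for ABI1 and 1.46 for ABI2. The line effect at 8 h minus that at 4 h was 4.02 for HAB1, 1.36 for PP2CA and 2.44 for ABI2. Of all genes, the interaction was called upwards in 15% and downwards in 10.2% at 4 h, and in 24.9% and 27.3% at 8 h. The change from 4 h to 8 h was called upwards in 13.3% and downwards in 22.9%. Leaving out any of 11 libraries lost the call of NCED3, and any of 14 that of the PP2CA change. The PP2CA interaction was lost without 35S:RPS4 4 h replicate 3.

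HAB1, ABI2 and PP2CA had levels in 35S:RPS4 that were below those of Col-0 at 4 h in every library, and HAB1 and ABI2 were above them in every library at 8 h. Between the lines at 4 h, HAB1 (log2FC −0.72) and ABI2 (−0.59) were not called. The call of PP2CA there was lost when any of 8 libraries was left out. The share of all genes separated in this way is not given here.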

How the results depend on the processing

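Of 2592 member values recomputed under the alternatives, 2470 stayed on their side of the threshold (40 of these, called in neither fit, changed sign), 54 lost a call, 67 gained one and 1 reversed, the line effect of HAI1 at 8 h minus 4 h (−2.17 to 4.74 over the libraries left out, the highest without Col-0 8 h replicate 3). Counts of members in this paragraph are given with the share of all tested genes called in the same fit. Library totals gave 2 lower between the lines at 4 h (1 as reported; 21.2% of genes), 0 lower in Col-0 at 4 h (1; 4.04%), 1 higher in 35S:RPS4 at 4 h (2; 15.2%), and for the interaction at 4 h 1 higher (2; 12.5%) and 2 lower (1; 16.5%). In Col-0, DESeq2 called 3 lower at 4 h (6.28%), and limma voom 2 at 4 h (4.21%), 2 at 8 h (11.5%) and 1 from 4 h to 8 h (0 as reported, 5.07%). Between the lines at 4 h DESeq2 called 3 higher (2 as reported, 16.7%). At 8 h limma voom called 6 higher between the lines (5 as reported, 27%) and 6 in the interaction (4 as reported, 25.8%). In 35S:RPS4 from 4 h to 8 h DESeq2 called 4 higher (3 as reported, 15.2%). With only the groups compared in the fit, 3 were called lower in Col-0 at 4 h (3.1%) and 0 at 8 h (9.63%), 5 higher in 35S:RPS4 from 4 h to 8 h (3; 18.9%) and 2 lower in the interaction at 4 h (10.5%). In that fit HAB1 in Col-0 at 8 h (−3.10, edgeR adjusted p = 0.0106) and NCED3 between the lines at 8 h (1.88, 0.0111) were not called. An adjusted p under 0.05 with no fold minimum gave 4 higher between the lines at 4 h (2; 26.5%), 5 lower in Col-0 at 4 h (14.2%), 4 lower at 8 h (25.3%), 4 higher in 35S:RPS4 at 8 h (2; 37.8%), 5 higher from 4 h to 8 h (27.5%) and 2 lower in the interaction at 4 h (19.2%). The causes were not tested.

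With all 18 libraries, 16.6% of all genes were called higher and 12.4% lower between the lines at 4 h. At 8 h 26.6% were called higher. The interaction was called higher in 15% and lower in 10.2% at 4 h, and higher in 24.9% at 8 h. The change of the line effect from 4 h to 8 h was called higher in 13.3%. Leaving out 1 library at a time gave 2 to 3 members higher and 0 to 1 lower between the lines at 4 h, and 5 to 7 higher at 8 h. In Col-0 it gave 0 to 3 lower at 4 h, 1 to 5 at 8 h, and 0 to 1 in each direction from 4 h to 8 h. In 35S:RPS4 it gave 1 to 2 higher and 3 lower at 4 h, 2 to 3 higher and 1 lower at 8 h, and 3 to 5 higher from 4 h to 8 h. The interaction gave 1 to 3 higher and 0 to 1 lower at 4 h and 4 to 7 higher at 8 h, and the line effect at 8 h minus 4 h gave 2 to 5 higher. Within Col-0, with all 18 libraries, 4.79% of all genes were called lower at 4 h and 11.8% at 8 h. From 4 h to 8 h 4.4% were called higher and 4.88% lower. Within 35S:RPS4, 18.3% were called higher and 14.8% lower at 4 h, and 26.5% and 29.7% at 8 h. From 4 h to 8 h 13.7% were called higher.

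The correlations did not settle whether replicate numbers pair the libraries. Over 45 pairs of libraries with the same number the correlation of deviations from the group means was −0.223 to 0.274 (median 0.00143). Pairs with other numbers gave −0.354 to 0.356 (median −0.0201). Of the 18 libraries 8 correlated best with their own number. Between the lines, replicates 1, 2 and 3 gave −0.120, −0.00379 and −0.127 at 0 h. The same pairs gave 0.207, 0.00917 and 0.212 at 4 h, and 0.143, 0.0323 and 0.221 at 8 h. Pairs between the lines with other numbers gave −0.0209 to 0.170 at 0 h, −0.247 to 0.0816 at 4 h and −0.189 to 0.0600 at 8 h. With the replicate block, 6 members were called higher between the lines at 8 h (5 as reported, with HAI1 added at 3.21, edgeR adjusted p = 0.00934) and 5 in the interaction at 8 h (4, with NCED3 added at 1.66, 0.00797), and no other member call changed. The shares of all genes called higher in that fit were 26.7% between the lines and 25% in the interaction at 8 h. HAI3 and AHG1, at 0 to 5 counts per library, were below what this depth can compare.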
